A study of Mus musculus with 6 samples.

Results

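The genes described are the conjugating enzymes of mouse lung: the glutathione S-transferases (GST), the UDP-glycosyltransferases (UGT) and the sulfotransferases (SULT). They were chosen by name, as the rows of the deposited table whose gene name begins with Gsta, Gstm, Gstp, Gstt, Gsto, Gstk, Gstz, Mgst, Sult or Ugt and a digit. That gave 41 of 21900 genes, made up of 25 GST, 7 UGT and 9 SULT genes, and 2 further rows with such names (a pseudogene and 1 gene of the Ugt1a locus) were left out by the rule. RNA was sequenced from lungs of 6 mice on a high fat (western) diet for 10 weeks, which all groups shared. There were 3 libraries labelled wild type and 3 labelled Cyp1b1 knockout. Libraries 1 and 2 of each label came from females and library 3 from a male, where the numbers only name the libraries. The sources used here give no age, strain or construction of the knockout allele, and no label says in words that the libraries are separate animals; the p-values cover only the variation among these 6 libraries. The values are read counts per gene divided by the library's total and scaled to 1000000 (CPM).

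Conjugating enzymes attach a polar group to a reactive or fat-soluble compound, so that it can be exported. GSTs use glutathione and act on electrophiles such as epoxides, quinones and the aldehydes made when lipids are oxidised. UGTs mostly transfer glucuronic acid from UDP-glucuronic acid to phenols, steroids and bilirubin, and SULTs transfer sulfate from the donor PAPS to phenols, catecholamines, steroids and cholesterol. CYP1B1, the cytochrome P450 that the knockout label names, oxidises estrogens, retinoids, fatty acids and polycyclic hydrocarbons, and products of such oxidation are known substrates of all 3 families. In the lung, secretory (club) cells of the airway are a known site of GST expression.

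The libraries held between 20.2 and 27.6 M assigned reads (1 M is 1000000), and 3 reads, taken as the lowest countable level, corresponded to values between 0.109 and 0.148 CPM, which covers counting error only. Lung markers were present in every library, with Sftpc, the surfactant protein of alveolar type 2 cells, between 7541 and 12270 CPM. The targeted gene went against the labels. Cyp1b1 (ENSMUSG00000024087) read 12.5, 19.0 and 18.5 CPM across labelled wild type 1 to 3, against 51.2, 56.1 and 48.4 CPM across labelled knockout 1 to 3. The 2 labels did not overlap (exact two-sided permutation p = 0.1, the smallest that 3 against 3 allows; limma adjusted p = 0.0588). A CPM per gene does not show which exons were read, and labels exchanged between the groups cannot be told apart here from an allele that still gives reads. Every direction below is therefore between libraries as labelled, and an exchange would turn the sign of every genotype difference. The 2 male libraries stood apart, in different ways. Labelled knockout 3 held the lowest value of the 6 for 37.5% of all genes tested. Its summed neutrophil markers were at 6738 CPM against 201 to 277 CPM in the females. Labelled wild type 3 held the highest value for 25.7% of all genes tested. Its summed T cell markers were at 185 CPM against 44.1 to 63.6 CPM in the females. The main sex results are given with and without each male library.

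A short motif search in the promoters comes first, because GST genes are textbook targets of NRF2, which binds the antioxidant response element, and UGT1A and GST genes are textbook targets of the aryl hydrocarbon receptor (AhR), which binds GCGTG. Promoter sequences of 300 bases (250 before and 50 after a start site, RefSeq, GRCm38.p6, the assembly that mm10 denotes) were found for 35 of the 41 genes, 47 promoters in all. TGACNNNGC, the core of the antioxidant response element, on either strand, was in 4 of the 47 promoters (8.51%). It was in 12.4% of the 32851 promoters used for comparison, which left out a chromosome that holds no member. GCGTG, also on either strand, was in 14 (29.8%), against 32.4%. The 2 motifs overlap in the Gstm5 promoter. Neither motif was more frequent in these promoters than in the promoters used for comparison. Sequence outside these 300 bases was not searched. The 4 promoters with TGACNNNGC belong to Gsta3, Mgst1, Gstm5 and Gstm7, and the matches are shown because Gsta3 and Mgst1 are among the most abundant members. Each line is 29 bases, 5′ to 3′ on the gene's strand, with the match in capitals.
Gsta3: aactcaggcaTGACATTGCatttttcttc
Mgst1: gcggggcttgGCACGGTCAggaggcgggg
Gstm5: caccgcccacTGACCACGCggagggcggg
Gstm7: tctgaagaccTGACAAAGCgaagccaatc
These stretches lie at chr1:21240454-21240482, chr6:138140461-138140489, chr3:107895802-107895830 and chr3:107931725-107931753, the last on the minus strand and the others on the plus strand. The Mgst1 match is read on the strand opposite to the gene. A match is a description of letters, not a site shown to be bound.

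Between genes, levels were compared as CPM per kilobase of merged exon (GENCODE M21, which uses the mm10 assembly). This divides by all annotated exons, so it understates a gene with long, rarely used exons. The GST genes carried most of the signal: 92.5% of the CPM of the 41 genes, against 6.0% for SULT and 1.53% for UGT genes. Gstm1, a mu class enzyme, was the most abundant at 275 ± 50.4 CPM per kilobase (SD, n = 6), above every other member in all 6 libraries. Mgst1, the membrane-bound microsomal transferase that is also a peroxidase, followed at 106 ± 9.84, and Gstp1, the pi class enzyme, at 70.2 ± 10.4 CPM per kilobase. These 3 genes held 55.3% of the summed level per length of the tested members, and each stood above the next in 6 of 6 libraries. Gstm2 (56.9 ± 9.95) and Gsto1 (55.3 ± 9.44 CPM per kilobase), an omega class enzyme that reduces dehydroascorbate, exchanged places between libraries. So did Gsta4 (42.4 ± 11.1) and Gstt1 (38.0 ± 7.46). Below them, Sult1a1, the phenol sulfotransferase, was at 30.4 ± 9.45 and Gsta3 at 26.1 ± 3.66 CPM per kilobase. Of the 29 pairs of neighbours in this order, 7 were ordered alike in all 6 libraries.

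**Figure D1:**
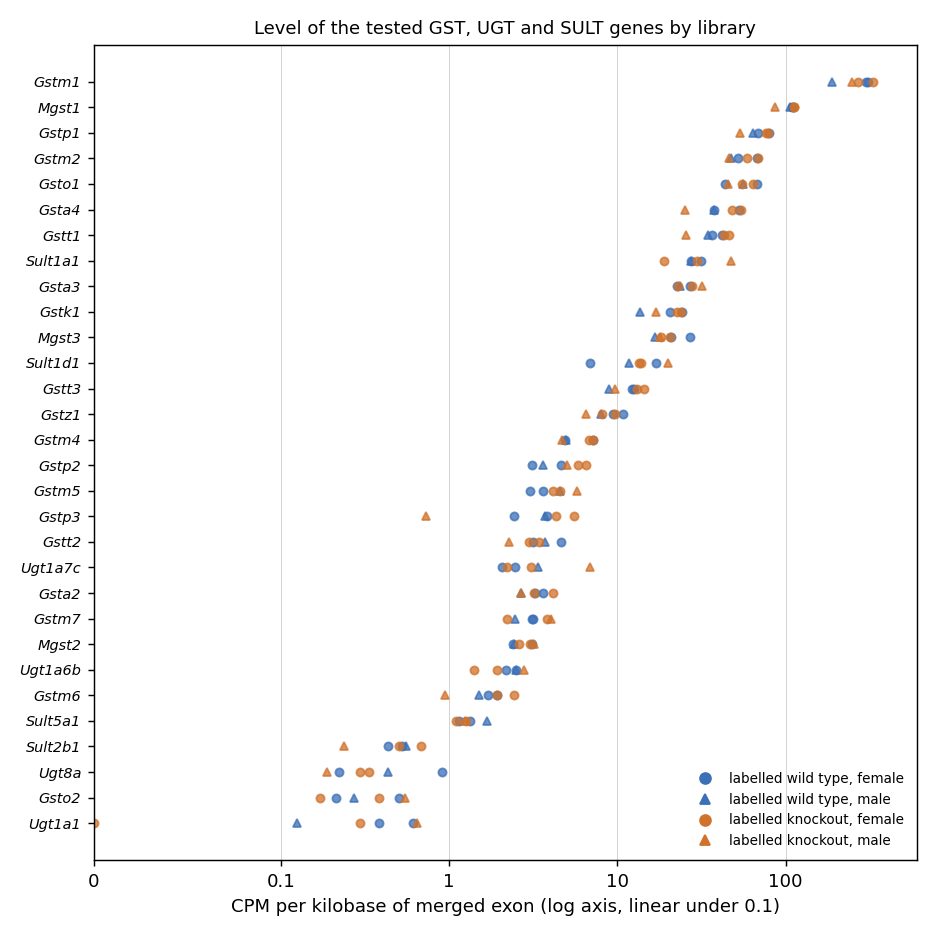
Level of the 30 members with a mean of at least 0.5 CPM, in CPM per kilobase of merged exon (log axis, linear under 0.1), one point per library, coloured by genotype label with triangles for males. Gstm1 sits highest in all 6 libraries, and most neighbours in the order overlap.

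The UGT and SULT genes were led by few members. Sult1a1 and Sult1d1, which sulfates catecholamines, were the only SULT genes above 10 CPM, at means of 45.9 and 34.0 CPM. Among the UGT genes only Ugt1a7c passed 10 CPM, with a mean of 14.1 CPM, followed by Ugt1a6b at 5.28 CPM. Per kilobase of merged exon they were closer, at 3.34 and 2.22 CPM, and Ugt1a6b was the higher in labelled wild type 1 and 2. Ugt8a, at 1.80 CPM, makes the galactolipids of myelin and does not glucuronidate. Ugt1a1, the enzyme that conjugates bilirubin, was at 0.761 CPM and had no read in labelled knockout 1.

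The filter of a mean of at least 0.5 CPM left out 11 members: Gsta1, Gsta5, Gstm3, Sult1b1, Sult2a1, Sult2a8, Sult4a1, Sult6b1, Ugt1a5, Ugt2a3 and Ugt2b34. Their means lay between 0.0773 and 0.450 CPM. Sult4a1, a brain sulfotransferase, was the only one of them whose labels did not overlap, as for 9.52% of all genes past the filter. It read 0.293, 0.544 and 0.47 CPM for wild type labels, against 0.179, 0.218 and 0 CPM for knockout labels. These are a few reads per library. Among the 30 that passed, Ugt1a1 (0.761 CPM) lay nearest to the filter, and among those left out Gstm3 (0.450 CPM). Gsta1, Sult2a1, Ugt2a3 and Ugt2b34 belong to groups best known from liver and intestine. The liver marker Alb was between 0.461 and 9.15 CPM. Sult6b1 lies on chromosome 17, 0.795 megabases from Cyp1b1, and was at 0.248 ± 0.227 CPM for wild type labels and 0.236 ± 0.182 CPM (SD, n = 3 each) for knockout labels.

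Several members share sequence with neighbours, which limits how reads could be assigned to them. In GENCODE M21 transcripts, 90.5% of the 50-base stretches of Gsta1 are also found in another gene. The share was 79.8% for Ugt1a6b, 64.0% for Ugt1a5, 58.2% for Ugt1a1 and 53.7% for Ugt1a7c, and the Ugt1a genes on chromosome 1 are known to have a first exon each and to share the rest. It was 54.3% for Gstp2 and 33.7% for Gstp1, which lie side by side on chromosome 19. Gsta2 shared 49.8%, Gsta5 49.4%, Sult2a1 33.2% and Gstm3 28.8%. Gstm1 shared 18.9%, mostly with a Gstm2 pseudogene. Gsta4, Gstk1, Gstm4, Gstm5, Gstp3, Gstt1, Gsto1, Mgst1, Mgst3 and Sult1d1 were among those that shared none. The sources used here give neither the read length nor the handling of such reads. Levels of Gsta1, Gsta2, Gsta5, Gstp2 and the Ugt1a genes are therefore uncertain.

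**Figure D2:**
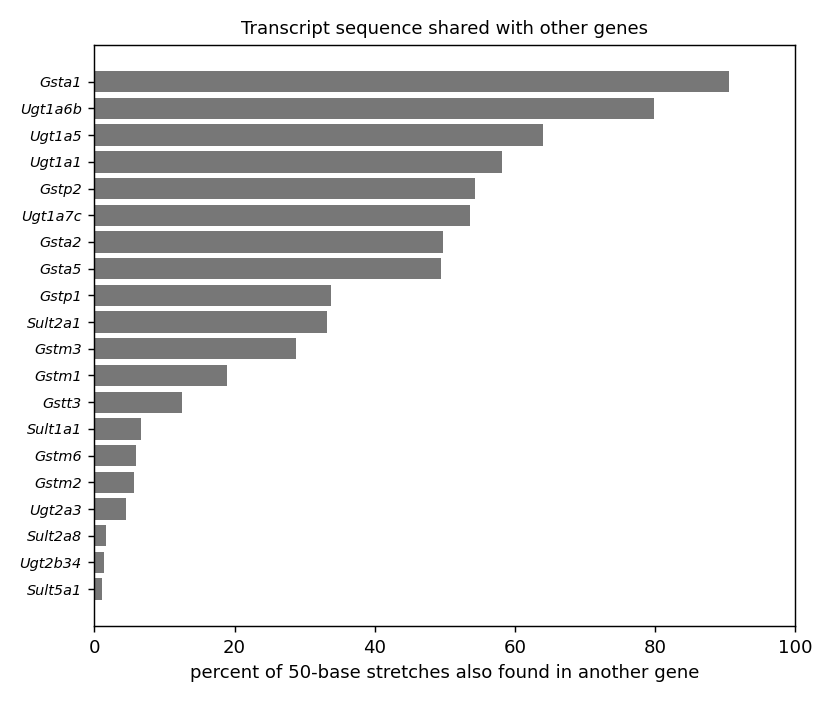
Percent of the 50-base stretches in a member's GENCODE M21 transcripts that also occur in a transcript of another gene, for members with at least 1%. Gsta1 reaches 90.5% and the Ugt1a genes lie between 53.7% and 79.8%.

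The first comparison asked whether conjugating enzymes differed between the genotype labels under the high fat diet. No member passed the test. Over all 6 libraries, limma with genotype label and sex as terms called 0 of the 30 tested members (adjusted p under 0.05 over all 17382 genes; 0.0115% of all genes were called). Adjusted p-values of the members lay between 0.775 and 0.992. Members were split evenly, 15 above and 15 below 0 (59.9% of all genes were below; with median centring 9 and with quantile normalization 13 members were below), with a median log2 difference of 0.02 (labelled knockout minus labelled wild type, on the log2(CPM + 0.5) scale), against -0.06 over all genes. At an unadjusted p under 0.05 there was 1 member, higher in labelled knockout (3.33%, against 5.13% of all genes, of which 1.8% higher and 3.33% lower). Standard errors of the log2 differences were between 0.11 and 0.57, with a median of 0.22.

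The member with the smallest p was Gstp2 (ENSMUSG00000038155, chromosome 19, 4040285 to 4046023, minus strand), a second pi class gene. It read 5.12, 3.47 and 4.01 CPM across labelled wild type 1 to 3, against 7.28, 6.50 and 5.61 CPM across labelled knockout 1 to 3. All 3 libraries labelled knockout lay above the 3 labelled wild type, as for no other tested member, while labels did not overlap for 9.52% of all genes (knockout above for 3.63% and below for 5.89%). The log2 difference was 0.58 (SE 0.25, 95% interval 0.0079 to 1.14, limma adjusted p = 0.775). Its neighbour Gstp1, with which it shares sequence and whose mean was 109 CPM against 5.33 CPM, did not separate the labels. Gstp1 read 124, 106 and 99.2 CPM across the wild type labels, against 118, 122 and 82.5 CPM across the knockout labels, a log2 difference of -0.04 with a 95% interval from -0.31 to 0.23.

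The abundant GST genes differed between the labels by less than the spread within them. Gstm1 (ENSMUSG00000058135, chromosome 3, 108012255 to 108017973, minus strand) read 453, 440 and 279 CPM across labelled wild type 1 to 3, against 399, 487 and 368 CPM across labelled knockout 1 to 3. Its log2 difference was 0.12, with an interval from -0.19 to 0.43. Mgst1 read 222, 220 and 213 CPM across the wild type labels, against 225, 226 and 174 CPM across the knockout labels. The other 5 libraries lay closer together than labelled knockout 3 lay to them, and the interval of the Mgst1 difference ran from -0.32 to 0.17. Gsta3, an alpha class enzyme known in mice for conjugating the epoxide of aflatoxin, read 98.5, 117 and 103 CPM across the wild type labels, against 99.96, 121 and 139 CPM across the knockout labels. Gsto1 was at 88.4, 136 and 113 CPM and at 112, 129 and 92.4 CPM in the same order. For both, the labels overlapped, with log2 differences of 0.17 (SE 0.14) for Gsta3 and -0.01 (SE 0.18) for Gsto1. Gstm2 read 113, 87.3 and 79.7 CPM across the wild type labels, against 99.5, 116 and 77.3 CPM across the knockout labels (log2 difference 0.06, SE 0.13).

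Other GST genes had log2 differences of either sign. Gstt2 read 19.3, 13.1 and 15.4 CPM across labelled wild type 1 to 3, against 12.4, 14.2 and 9.47 CPM across labelled knockout 1 to 3 (log2 difference -0.39, SE 0.21, limma adjusted p = 0.775). Gstz1, the isomerase for maleylacetoacetate in tyrosine breakdown, was at 47.7, 54.6 and 40.5 CPM and at 41.5, 49.6 and 33 CPM, with a log2 difference of -0.21 (SE 0.13). Gstm5 was at 3.85, 4.60 and 5.85 CPM and at 5.29, 5.84 and 7.33 CPM (log2 difference 0.34, SE 0.22). In each of these the labels overlapped. The 12 GST genes above 0 and 10 below gave a median of 0.06, which was 0.10 with quantile normalization and 0.16 with median centring.

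Among the UGT genes, the difference with the smallest p came with 1 library. Ugt1a7c (ENSMUSG00000090124, chromosome 1, 88095062 to 88220002, plus strand) read 10.5, 8.69 and 14.2 CPM across labelled wild type 1 to 3, against 12.9, 9.28 and 29.1 CPM across labelled knockout 1 to 3. Labelled knockout 3, the male, was the highest of the 6, and the other 5 overlapped. The log2 difference was 0.46 (SE 0.24, limma adjusted p = 0.775), and in the 4 females it was 0.19. Ugt1a6b read 5.97, 5.22 and 5.96 CPM across the wild type labels, against 3.36, 4.58 and 6.62 CPM across the knockout labels (log2 difference -0.26, SE 0.26). Ugt8a was at 1.0, 4.10 and 1.96 CPM and at 1.52, 1.34 and 0.858 CPM, with labelled wild type 2 standing above the rest (-0.58, SE 0.44; -0.16 with that library left out, -1.09 with labelled wild type 1 left out). Ugt1a1 was at 1.35, 0.850 and 0.277 CPM and at 0, 0.655 and 1.43 CPM, a range within each label wider than the difference between them.

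The SULT genes were also uneven within labels. Sult1d1 read 16.9, 41.7 and 28.8 CPM across labelled wild type 1 to 3, against 34.1, 33.2 and 49.0 CPM across labelled knockout 1 to 3 (log2 difference 0.48, SE 0.29, limma adjusted p = 0.775). Without labelled wild type 1 the Sult1d1 difference was 0.15, and without labelled wild type 2 it was 0.88. Sult1a1 was at 41.4, 47.2 and 41.5 CPM and at 28.6, 44.7 and 71.8 CPM. Labelled knockout held both the lowest and the highest Sult1a1 value of the 6 libraries. Its log2 difference was 0.06 (SE 0.25), and it was -0.30 in the 4 females. Sult5a1 (6.11 ± 1.18 and 5.29 ± 0.399 CPM, SD, n = 3 each) and Sult2b1, which makes cholesterol sulfate (1.99 ± 0.242 and 1.87 ± 0.883 CPM), overlapped between the labels. The median over the 4 tested SULT genes was -0.04, and it was 0.03 with quantile normalization and 0.06 with median centring.

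**Figure D3:**
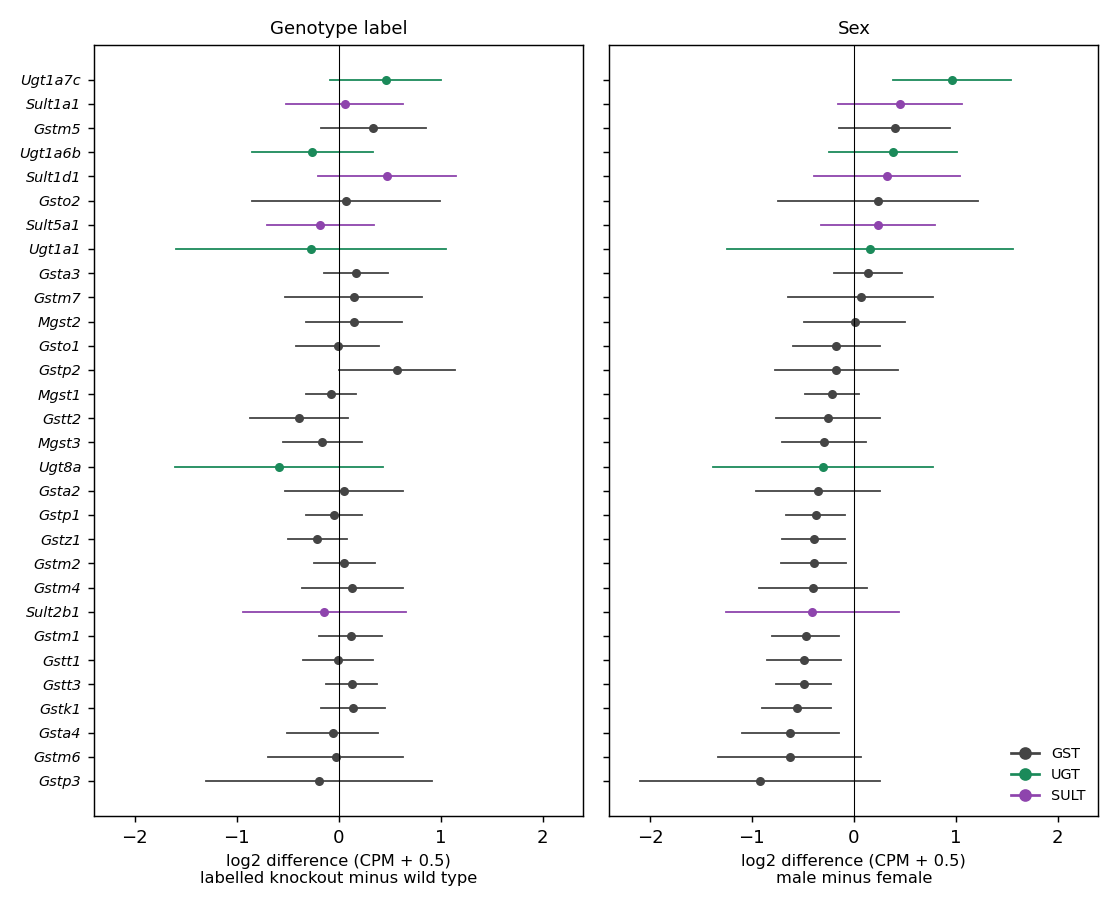
Log2 differences of the 30 tested members on the log2(CPM + 0.5) scale with 95% intervals from limma, by genotype label on the left and by sex on the right, both ordered by the sex difference and coloured by family. In the left panel the intervals of all members but Gstp2 include 0. In the right panel 8 GST genes lie below 0 with their interval and Ugt1a7c lies above.

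The second comparison, males against females, was made because liver members of these families are known to differ between the sexes of mice. None of the 30 members passed limma after adjustment (adjusted p between 0.105 and 0.991; 0.834% of all genes were called). GST values were lower in the males for 17 of 22 genes (57.4% of all genes were below 0), with a median log2 difference (male minus female) of -0.36, against -0.05 over all genes. The UGT and SULT medians were 0.27 and 0.28 over 4 genes each. At an unadjusted p under 0.05 there were 9 members (30.0%, against 15.3% of all genes): 8 GST genes lower in males (26.7% of members, against 9.0% of all genes) and Ugt1a7c higher (6.28% of all genes). The sexes did not overlap for 13 members (43.3%, against 24.0% of all genes). For 11, all GST genes, both males lay below all 4 females (36.7%, against 14.7% of all genes), and for Gstm5 and Ugt1a7c both lay above (9.28% of all genes). With quantile normalization the GST median was -0.35 and with median centring -0.31.

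The 8 GST genes were Gstt3, Gstk1, Gstm1, Gstt1, Gsta4, Gstp1, Gstz1 and Gstm2. Gstt3, a theta class gene, read 34.1 and 37.0 CPM in the pair of males, against 48.5, 47.2, 55.2 and 50.03 CPM for females (log2 difference -0.49, SE 0.12, limma adjusted p = 0.105). Gstk1, the kappa class enzyme of mitochondria and peroxisomes, read 20.1 and 25.1 CPM in males, against 30.1 to 35.5 CPM for females (-0.56, SE 0.15, limma adjusted p = 0.127). For both, the males lay below every female, as they did for Gstm1, where 279 and 368 CPM stood against 399 to 487 CPM (-0.47, SE 0.14, limma adjusted p = 0.175). Gstt1 read 52.5 and 39.3 CPM in males, below the female range of 55.6 to 70.8 CPM (-0.49, SE 0.16). Gsta4, which conjugates hydroxynonenal, an aldehyde of lipid peroxidation, was at 47.4 CPM in labelled wild type 3, within the female range of 47.3 to 68.5 CPM, and at 31.9 CPM in labelled knockout 3. Of the Gstm genes, which lie together on chromosome 3, Gstm1, Gstm2 and Gstm6 were below all females in both males and Gstm5 was above them.

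Leaving out 1 male moved these values. Each fit without 1 male rests on a lone male library. Over all genes the median log2 difference was 0.0089 without labelled knockout 3 and -0.13 without labelled wild type 3. The GST median was -0.22 without labelled knockout 3 and -0.41 without labelled wild type 3, with 19 and 17 of 22 genes below 0. Gstt3 differed little between these fits, at -0.48 without labelled knockout 3 and -0.50 without labelled wild type 3. In the same order, Gstm1 was at -0.68 and -0.26, Gstt1 at -0.18 and -0.79, Gsta4 at -0.24 and -1.003, and Ugt1a7c at 0.55 and 1.37. Gstp3 changed sign, from 0.24 to -2.08, and read 3.37 CPM in labelled wild type 3 and 0.663 CPM in labelled knockout 3. After adjustment, without labelled wild type 3, 4 members passed: Gstt1 (limma adjusted p = 0.0270), Gstp3 (0.0305), Ugt1a7c (0.0310) and Gsta4 (0.0350). The sex term then rests on labelled knockout 3 against the 2 females of the same label. Without labelled knockout 3, Gstm1 alone passed (limma adjusted p = 0.0437), and the sex term rests on labelled wild type 3 against the 2 females of its label. The lone male is then assumed to vary like the females. Leaving out any female left 0 members past the threshold.

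Other measures moved with the males. Club cell markers (12 of 12 measured, none with a mean near 0) summed to 21021 and 16108 CPM in males, below the female range of 27760 to 34491 CPM, with Scgb1a1 at 14852 and 9396 CPM against 19476 to 24282 CPM. Summed ciliated cell markers (12 of 12, none with a mean near 0) were at 733 and 582 CPM against 926 to 1249 CPM. Fibroblast and matrix markers (10 of 10, none with a mean near 0) were at 3814 and 3563 CPM against 4464 to 5553 CPM. Summed markers of alveolar type 2, alveolar type 1, smooth muscle and mesothelial cells also lay below all females in both males. Smooth muscle markers, for example, were at 900 and 977 CPM against 1136 to 1677 CPM. Erythroid markers (8 of 8, none with a mean near 0) went the other way, at 2776 and 5938 CPM against 853 to 1613 CPM. So did neutrophil, monocyte and platelet markers. Endothelial, cardiac muscle, adipocyte, hepatocyte, alveolar macrophage, B cell and T cell markers did not separate the sexes. Fewer cells of a type and less RNA per cell cannot be told apart in whole lung, and the part of these cells in the GST values was not tested.

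**Figure D4:**
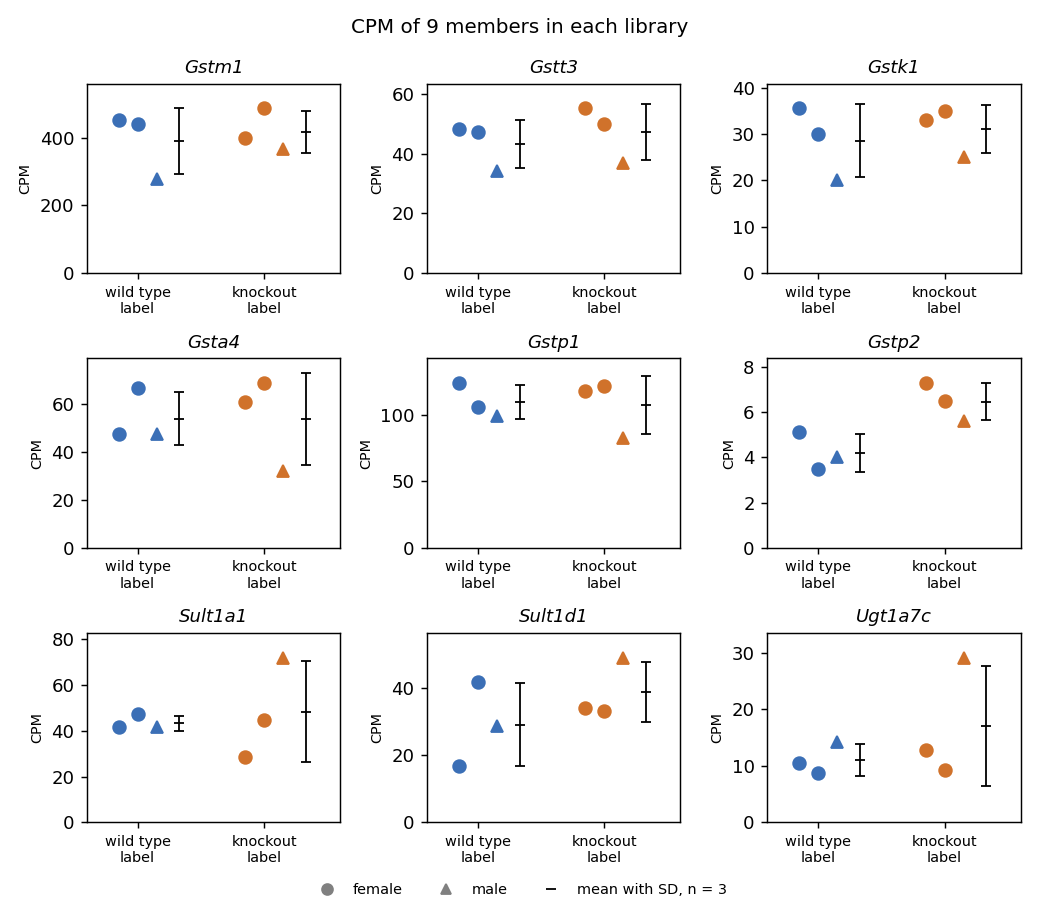
CPM of 9 members by genotype label, one point per library (triangles are males), with the mean and SD of each label (n = 3). Both males sit below all females for Gstm1, Gstt3, Gstk1 and Gstp1, the 3 libraries labelled knockout sit above for Gstp2, and the male labelled knockout is highest for Sult1a1, Sult1d1 and Ugt1a7c.

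The difference between the labels was also compared between the sexes. No member passed limma's interaction term (lowest adjusted p 0.0877; 2.54% of all genes were called), and 5 members had an unadjusted p under 0.05 (16.7%, against 17.9% of all genes). With 1 male per label this compares 2 libraries beyond the spread of the females. Gstp3, another pi class gene, had the smallest p. It was at 3.37 CPM in labelled wild type 3 and 0.663 CPM in labelled knockout 3, with a female range of 2.22 to 5.003 CPM (interaction log2 -2.32, SE 0.59). Sult1a1 read 41.5 CPM in labelled wild type 3 and 71.8 CPM in labelled knockout 3, and was lower in labelled knockout than in labelled wild type females on average (interaction log2 1.09, SE 0.35, limma adjusted p = 0.157). The other 3 were Gstt1, Gsta4 and Ugt1a1. Labelled knockout 3 held the lowest value of the 6 libraries for 12 of the 30 members (40.0%, against 37.5% of all genes) and the highest for 10 (17.6% of all genes). That library also held the most neutrophil and erythroid marker RNA. The part of those cells in its values was not tested.

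Genes that feed these enzymes, remove their products or regulate them were followed in 7 lists, of which 74 genes were tested. None passed limma for genotype label (lowest adjusted p 0.775), with 1 higher and 2 lower at an unadjusted p under 0.05 (4.05%, against 5.13% of all genes) and a median log2 difference of -0.02. None passed for sex either, with 9 higher and 4 lower in males at an unadjusted p under 0.05. That was 17.6%, against 15.3% of all genes (6.28% higher and 9.0% lower). The list for supply and recycling of glutathione held 5 of the higher and 1 of the lower genes. In the supply and recycling of glutathione (18 of 18 tested) Ggct, which breaks down gamma-glutamyl peptides, was at 7.94 ± 2.30 CPM for wild type labels and 4.61 ± 1.26 CPM (SD, n = 3 each) for knockout labels (log2 difference -0.71, SE 0.30, limma adjusted p = 0.775). Ggt1, which starts the breakdown of extracellular glutathione, was at 16.8 CPM in labelled knockout 3 and between 0.979 and 2.42 CPM in the other 5 libraries. Slc7a11, the cystine importer that feeds glutathione synthesis, was the only gene of the 7 lists past the interaction test (log2 -2.37, SE 0.45, limma adjusted p = 0.0349). It read 33.04 CPM in labelled wild type 3 and 6.94 CPM in labelled knockout 3, against 3.22 to 4.35 CPM for females. The interaction test, with 1 male per label, called 2.54% of all genes. Gclm, the modifier subunit of the enzyme that limits glutathione synthesis, was at 73.8 ± 10.6 and 88.8 ± 19.9 CPM.

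No gene of donor supply, export or deconjugation passed the test either. Papss2, which makes PAPS, read 34.3, 33 and 33.1 CPM for wild type labels, against 31.4, 39.5 and 56.5 CPM for knockout labels. The highest value was in labelled knockout 3, the male, as for 17.6% of all genes. Of the same list, Bpnt2 and Slc26a1 were also highest in that library. Papss1, Slc35b2, Slc35b3, Bpnt1 and Slc26a11 were lowest there. In the supply of UDP-glucuronic acid (8 tested, 0 at an unadjusted p under 0.05), Pgm2 had the smallest p, at 24.3 ± 1.61 and 20.6 ± 0.647 CPM. Abcc4, an exporter of conjugates, was at 18.5 ± 3.08 and 22.6 ± 5.60 CPM, and the sulfatase Arsg at 3.81 ± 0.776 and 5.85 ± 0.853 CPM (log2 difference 0.57, SE 0.23). In the list of other conjugating enzymes (8 tested, 0 at an unadjusted p under 0.05), Acsm1 was at 6.89 ± 2.10 and 8.94 ± 1.09 CPM. Of the regulators, Ahr was at 108 ± 20.6 CPM for wild type labels and 88.6 ± 20.1 CPM for knockout labels (-0.28, SE 0.12), and Nfe2l2, which encodes NRF2, at 237 ± 28.4 and 198 ± 30.1 CPM (-0.26, SE 0.14). Keap1, which holds NRF2 back, was at 78.5 ± 8.20 and 67.8 ± 6.06 CPM. Each SD is over 3 libraries, and each limma adjusted p was 0.775.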

How the data were processed

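RNA-seq of 6 mouse lungs was used as CPM per gene, which the authors deposited as 1 column per library with 0.0001 added to every value. The submitters' processing notes name TopHat2, Partek and build mm10, without versions or roles; annotation, filters and strandedness: not given in the sources used here. Depth was read from the step between low values. Of values no larger than 100 reads, 82.2% to 83.4% were whole multiples of it within 0.05, so no count model was used. Genes with a mean of at least 0.5 CPM were tested with limma 3.58.1 under R 4.3.3, with a variance trend, on log2(CPM + 0.5). Genotype label and sex were terms, and tests were two-sided, with Benjamini-Hochberg adjustment over all genes. The genotype term of this fit was also run on simulated data. Those data held no sex difference, so the sex and interaction terms were not tried on them. Intervals are 95% from that fit. Positions and exon lengths come from GENCODE M21, which held 41 of 41 members by identifier (Gsta5 under another name). Python 3.11.15, pandas 2.3.3, scipy 1.17.1 and matplotlib 3.10.9 were used.

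The members and lists were chosen with earlier results of these data known. Named members were the 10 of highest mean CPM, the 4 of smallest genotype p and 3 of smallest sex p in each family, those past a test and those whose labels did not overlap; up to 3 genes of smallest genotype p were open to naming in each pathway list. Others, among them Gstp3, Gstm6, Gclm and Slc7a11, were chosen after their values were seen. Alternatives were pseudocounts of 0.1 and 1 CPM, no filter, a mean of at least 1 CPM, quantile normalization, median centring, robust moderation, no sex term, females alone and leaving out each library.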

Additional observations from a re-analysis of the deposited data

Results flagged for a closer look

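Of 22 named members examined for a value far from the others among the 4 female libraries, 1 had such a value; chance gives about 1 in 20. In labelled wild type 2, Ugt8a read 4.10 CPM, and the other 3 females lay from 1.0 to 1.52 CPM.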

How the results depend on the processing

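No member passed the genotype test under any alternative. The count over all genes, 2, was 6 with no filter, quantile normalization, median centring or robust moderation, 4 in the 4 females, and 1 to 4 when a library was left out. Median centring moved the median log2 genotype difference of all genes from -0.06 to 0.05 and that of the members from 0.02 to 0.13; calls at an unadjusted p under 0.05 went from 313 higher of 892 to 596 of 931. For sex, the count over all genes, 145, ran from 21 (without labelled knockout 2) to 877 (without labelled wild type 3) when a library was left out, and that of members from 0 to 4. For the interaction, 441 genes became 0 with no filter and 255 to 696 when a female was left out. Sult1a1 was its only member past the threshold with median centring (1), and leaving out a female gave 0 to 1 members (Sult1d1 without labelled wild type 1, Sult1a1 without labelled knockout 2). These causes were not tested.

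Of 12 members followed for genotype, 3 changed sign. Sult1a1 was at -0.30 and Sult2b1 at 0.24 in females. When a library was left out, Sult1a1 ran from -0.30 to 0.34 (below 0 without either male or labelled knockout 2), Ugt1a1 from -1.06 to 0.30 (above 0 without labelled wild type 1 or labelled knockout 1) and Sult2b1 from -0.35 to 0.24 (above 0 without either male). Members not followed for genotype also changed sign, among them Gstm1 (-0.020 to 0.24), Gsto1 (-0.23 to 0.13) and Gstp3 (-0.57 to 0.58). Others, such as Gsta3 (0.038 to 0.29), did not. Of 9 followed for sex, the 3 of smallest sex p in each family, Sult1a1 ran from -0.089 to 0.997 and Sult2b1 from -0.97 to 0.16. Both changed sign without labelled knockout 3. Ugt8a ran from -0.68 to 0.015, changing sign without labelled wild type 2. Among members not followed for sex, Gsto1 (-0.38 to 0.038) and Gstp3 (-2.08 to 0.24) changed sign, while Gstt1 (-0.79 to -0.18) did not. No paired analysis was possible because the labels give no replicate numbers. At this depth members under 0.5 CPM rest on few reads.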
